A study of Mus musculus with 4 samples.

Results

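The Hox genes encode homeodomain transcription factors and lie in 4 clusters, a to d, in the mouse genome. The RNA of 38 protein-coding Hox genes, out of 26994 gene symbols in the deposited tables, was followed in differentiating mouse embryonic stem cells. The members were chosen by name: 10 genes of cluster a, 10 of cluster b, 9 of cluster c and 9 of cluster d. The names alone set the list, but earlier results of these data were known when it was made. Other genes of the family were not analysed here.

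The clusters are known for collinearity: along each cluster the genes are ordered by paralog number, and low-numbered genes are switched on earlier and further towards the head than high-numbered ones. In the embryo they become active in the posterior primitive streak and then give cells of the body axis, limbs and gut their position. Hox proteins bind DNA together with cofactors of the Pbx, Meis and Pknox (Prep) families. Cdx transcription factors, Wnt signals and retinoic acid act upstream of the clusters.

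All 4 libraries came from CJ9, a mouse embryonic stem cell line of strain 129S4/SvJae, with a wild-type genotype and, by title, Cas9 only. The cells differentiated after withdrawal of LIF, the cytokine that holds embryonic stem cells in the pluripotent state. By title, time and harvest entries, 2 libraries are of day 4 and 2 of day 6. The culture text in the labels gives 2 and 6 days without LIF for day 4 replicates 1 and 2, and 4 and 6 days for day 6 replicates 1 and 2, so it goes against the titles for 3 of the 4 libraries. Each library came from the poly(A) RNA of a whole culture of this 1 line, by stranded RNA-seq. Fewer cells of a type and less RNA per cell therefore cannot be told apart. No label says that replicates are separate cultures, and the p-values thus reflect the spread between these libraries alone, which may be technical.

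Levels are given in FPKM, the number of mapped fragments scaled to transcript length and library size, which can be compared between genes because they are per length. Read as counting error, the widths of the deposited bounds on FPKM stand for about 4510000 and 4550000 fragments in day 4 replicates 1 and 2. They stand for about 7890000 and 6970000 in day 6 replicates 1 and 2. At these depths, 3 fragments amounted to between 0.166 and 0.951 FPKM on day 4, depending on transcript length, over the 35 Hox genes with 1 transcript row. Differences were computed as log2(FPKM + 1) on day 6 minus day 4 with limma, for genes whose mean over the libraries was 1 FPKM or more. Of the 38 Hox genes, 14 had such a mean. Fold values compare the mean FPKM of the days.

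Most Hox genes were barely detected on day 4 and higher on day 6. Of the 38 genes, 17 and 18 were above 0 in day 4 replicates 1 and 2, against 36 and 35 in day 6 replicates 1 and 2. At 1 FPKM or more there were 3 and 7 on day 4 and 17 and 20 on day 6. Over all symbols, 15194 and 12646 were above 0 on day 4 and 17266 and 16869 on day 6. At 1 FPKM or more there were 11206 and 9449 symbols against 11840 and 11705. The day 6 libraries were also deeper, which bears on counts above 0. Both day 6 libraries were above both day 4 libraries for 27 of the 38 genes (71.1%). Among all 18550 symbols above 0 in any library, 38.1% had this pattern. The 38 genes include 2, Hoxa6 and Hoxc12, at 0 in all 4 libraries, and some lists below hold such genes too. Symbols at 0 throughout are left out of the shares of all symbols. The 27 genes were spread over the clusters: 8 of 10 in cluster a, 7 of 10 in cluster b, 6 of 9 in cluster c and 6 of 9 in cluster d. Only 2 of the 38 Hox genes, Hoxb1 and Hoxc13, were lower in both day 6 libraries (5.26%, against 9.45% of all symbols above 0), and 9 overlapped between the days.

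No Hox gene passed the test. limma with Benjamini-Hochberg adjustment over 11716 genes called 0 of the 14 Hox genes tested, and 0% of all genes tested. At an unadjusted p under 0.05, 9 of the 14 were higher and 1 was lower on day 6, against 12.9% and 2.41% of all genes tested. Of the 14, 8 had a mean under 1 FPKM on day 4 and 3 on day 6, so the filter itself favours Hox genes that differ between the days, and nothing is read from these shares. The smallest adjusted p of any gene was 0.267. An exact two-sided permutation test of 2 against 2 libraries cannot give a p below 0.333. The call rested on the spread of the day 4 pair: without day 4 replicate 1, limma with the same adjustment called 10 of the 14 Hox genes higher and 4 lower, and without day 4 replicate 2 it called 10 higher and 1 lower. The lone day 4 library is then assumed to vary like the day 6 pair. In the same fits 49.9% and 36.7% of all genes were called higher, and 17.1% and 15.8% lower, and the same limit of the filter holds.

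The deposited intervals, which cover counting error only, give a stricter view of single genes. Each upper limit, also that of a value of 0, was taken as no lower than the level of 3 fragments. Of the 35 Hox genes with 1 transcript row, 16 (45.7%) had both day 6 intervals wholly above both day 4 intervals. The share was 15.8% among 14355 symbols with 1 row and a value above 0 in any library. Only Hoxb1 among the 35 had both day 6 intervals wholly below, against 3.59% of those symbols.

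**Figure D1:**
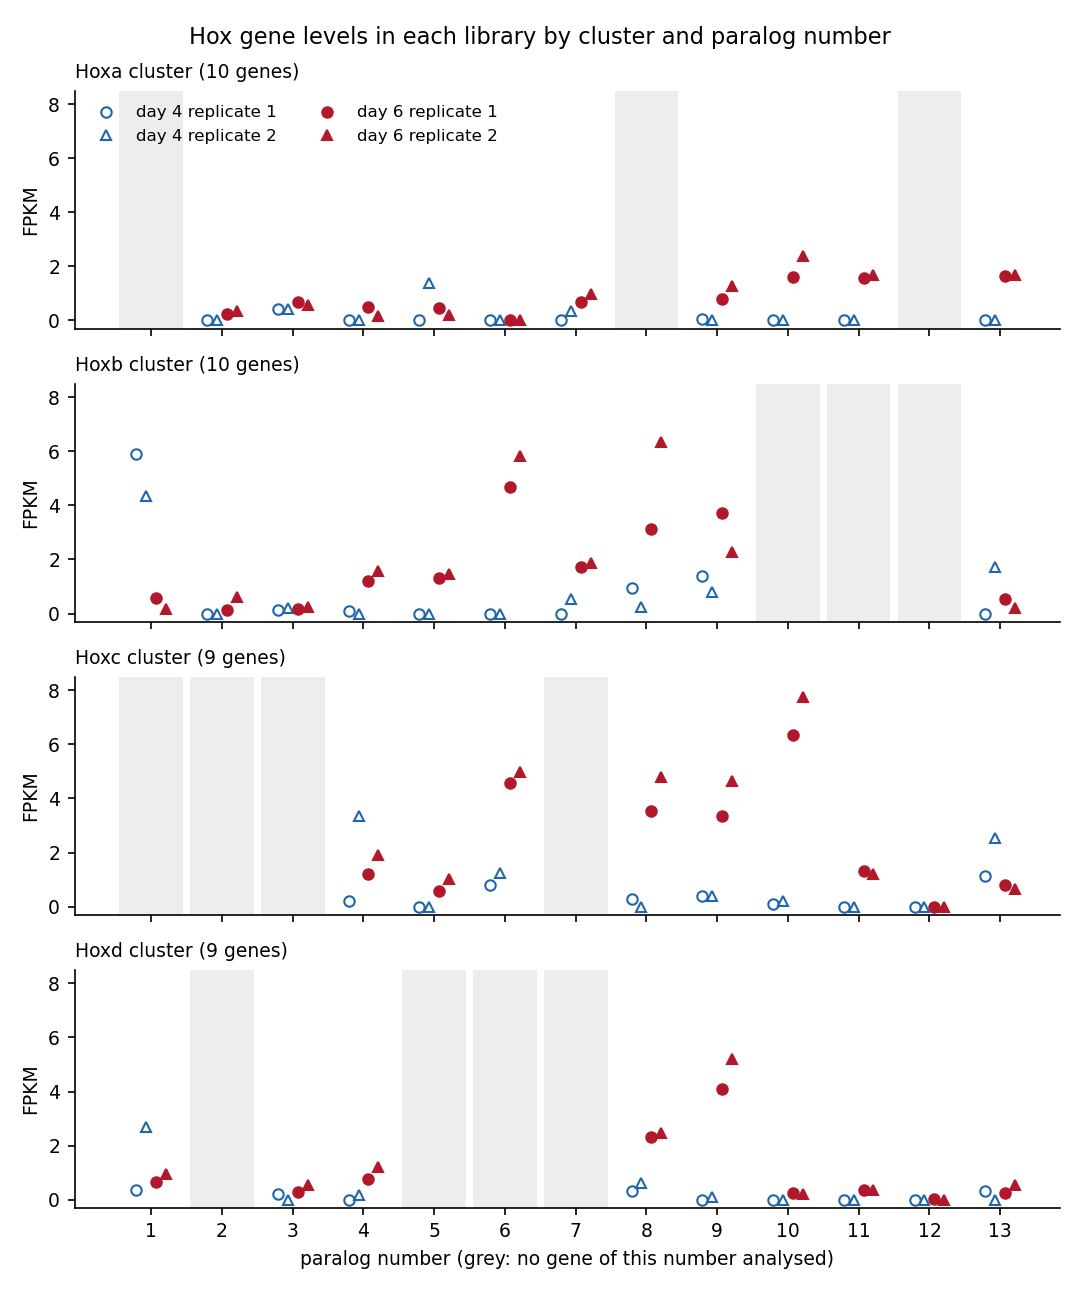
FPKM of each of the 38 Hox genes in each library (vertical axis, FPKM), by paralog number (horizontal axis), with 1 panel per cluster; open blue symbols are the 2 day 4 libraries and filled red symbols the 2 day 6 libraries. Hoxb1 was highest on day 4, and Hoxc10 was the highest Hox gene in both day 6 libraries, at 6.36 and 7.74 FPKM.

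Paralog groups 1 to 3, the 3′ end of the clusters, hold the genes of the hindbrain and upper neck. The 7 genes analysed summed to 7.00 and 7.62 FPKM in day 4 replicates 1 and 2 and to 2.74 and 3.48 FPKM in day 6 replicates 1 and 2. These genes made up 53.7 and 35.9% of all Hox FPKM on day 4 and 4.88 and 5.10% on day 6. Of the 3 ranges of paralogs it was the one with a lower sum in both day 6 libraries. Without Hoxb1 the sums were 1.09 and 3.28 against 2.16 and 3.30 FPKM.

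Hoxb1, which sets the identity of the fourth hindbrain segment and is among the earliest Hox genes of the primitive streak, was at 5.91 and 4.34 FPKM in day 4 replicates 1 and 2. It was at 0.577 and 0.180 FPKM in day 6 replicates 1 and 2. Both day 4 libraries were far above both day 6 libraries, with intervals of 4.33 to 7.44 and 2.95 to 5.71 FPKM against 0.242 to 0.872 and 0 to 0.332. The day means were 5.12 ± 1.11 and 0.378 ± 0.281 FPKM (SD, n = 2 each), 13.5-fold higher on day 4. The log2 difference was -2.15 (SE 0.41), with an unadjusted limma p of 0.0049 and an adjusted p of 0.267. Hoxb1 alone was 45.4 and 20.4% of the Hox FPKM in the day 4 libraries. It lies on chromosome 11, plus strand, bases 96365758 to 96368253 of mm10.

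The 250 bases before the RefSeq start of Hoxb1 are shown because Hox and Pbx proteins are known to act on this gene through joint sites. The window is chr11:96365508-96365757 of GRCm38.p6, plus strand, 5′ to 3′, and capitals mark a match to TGATNNAT, a form of the joint Pbx and Hox site.
Hoxb1: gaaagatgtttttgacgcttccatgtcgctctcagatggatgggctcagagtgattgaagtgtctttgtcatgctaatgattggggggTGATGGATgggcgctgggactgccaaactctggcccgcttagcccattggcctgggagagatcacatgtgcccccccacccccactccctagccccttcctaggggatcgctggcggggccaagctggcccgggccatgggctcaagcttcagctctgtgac
The match lies 162 to 155 bases before the start, and 59.2% of the window is G or C.

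The other genes of these paralog groups, except Hoxd1, were below 1 FPKM in every library. Hoxa2, which patterns the second branchial arch, was listed at 0 in both day 4 libraries but at 0.249 and 0.356 FPKM in day 6 replicates 1 and 2. Hoxb2, a hindbrain gene, was listed at 0 in both day 4 libraries but at 0.137 and 0.626 FPKM on day 6. The day 6 values of both genes did not all exceed what 3 fragments would give on day 4, so a difference was not detectable at this depth. Hoxa3, needed for thymus and parathyroid, was at 0.410 and 0.415 FPKM on day 4 and at 0.675 and 0.579 FPKM on day 6. Hoxb3 ranged from 0.124 to 0.249 FPKM, with the days overlapping. Hoxd3, which shapes the upper neck vertebrae, was at 0.214 and 0 FPKM on day 4 and at 0.293 and 0.545 FPKM on day 6. These differences are small beside the intervals, which touch for Hoxa3 and Hoxd3.

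Hoxd1, a gene of sensory neurons and early mesoderm, was at 0.344 and 2.68 FPKM in day 4 replicates 1 and 2 and at 0.649 and 0.945 FPKM in day 6 replicates 1 and 2. The day 4 libraries lay on either side of the day 6 libraries. The log2 difference was -0.31 (SE 0.60), with a limma adjusted p of 0.820, and it became 0.41 without day 4 replicate 2 and -1.04 without day 4 replicate 1 (limma adjusted p 0.0159).

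Paralog groups 4 to 8, which pattern the neck and chest, held a larger share of the Hox FPKM in both day 6 libraries than in either day 4 library. Their 15 genes summed to 2.63 and 7.89 FPKM on day 4 and to 26.7 and 34.7 FPKM on day 6, a 5.83-fold difference of the day means. They were 20.2 and 37.2% of the Hox FPKM in day 4 replicates 1 and 2 and 47.5 and 50.9% in day 6 replicates 1 and 2. The day 4 shares are lowered by Hoxb1, which held 45.4 and 20.4% of the Hox FPKM there. In cluster b the 5 genes of this range summed to 1.02 and 0.775 FPKM on day 4 and to 12.04 and 17.1 FPKM on day 6.

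Hoxb6, a gene of the trunk and of lateral plate mesoderm, was listed at 0 in both day 4 libraries, where 3 fragments would have given 0.503 and 0.498 FPKM. In day 6 replicates 1 and 2 it was at 4.66 and 5.83 FPKM, the equivalent of 53.5 and 55.8 fragments. All day 6 values stood above what the day 4 depth could have missed. The log2 difference was 2.64 (SE 0.37), with an unadjusted limma p of 0.0014 and an adjusted p of 0.267. Hoxb6 lies on chromosome 11, plus strand, bases 96299171 to 96301569 of mm10, and its span meets the antisense gene Hoxb5os.

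Hoxb8, a gene of the limb bud's posterior margin and of myeloid progenitors, was at 0.943 and 0.239 FPKM in day 4 replicates 1 and 2 and at 3.12 and 6.34 FPKM in day 6 replicates 1 and 2. The days did not overlap, but the 2 day 6 libraries differed from each other, with intervals of 2.40 to 3.84 and 5.13 to 7.48 FPKM. The mean was 8.00-fold higher on day 6, and the log2 difference was 1.82 (SE 0.51), with a limma adjusted p of 0.288.

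The window before Hoxb8 is shown because it held 3 matches to TGATNNAT and TTTATG, more than any other Hox window. It is chr11:96281655-96281904 of GRCm38.p6, plus strand, 5′ to 3′. Capitals mark TTTATG, a site form of Cdx and posterior Hox proteins, its reverse complement CATAAA, and a match to TGATNNAT on the reverse strand (ATTGATCA).
Hoxb8: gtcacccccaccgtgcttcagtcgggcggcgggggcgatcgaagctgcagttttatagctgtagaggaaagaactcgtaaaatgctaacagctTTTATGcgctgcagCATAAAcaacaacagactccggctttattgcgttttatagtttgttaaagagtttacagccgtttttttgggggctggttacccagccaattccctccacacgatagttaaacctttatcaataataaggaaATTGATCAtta
The 3 matches lie 157 to 152, 143 to 138 and 11 to 4 bases before the start, in a window of 44.4% G or C.

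Hoxc8, a gene of brachial motor neurons and chest vertebrae, was at 0.265 and 0 FPKM in day 4 replicates 1 and 2 and at 3.55 and 4.79 FPKM in day 6 replicates 1 and 2. Its log2 difference was 2.19 (SE 0.39), with a limma adjusted p of 0.267. Hoxc6, a gene of the upper chest, was at 0.817 and 1.25 FPKM on day 4 and at 4.56 and 4.97 FPKM on day 6, 4.62-fold higher. Both genes had every day 6 interval above every day 4 interval. Hoxd8 was at 0.309 and 0.627 FPKM on day 4 and at 2.30 and 2.45 FPKM on day 6, with the same order of intervals and a 5.08-fold difference. Hoxb7, a gene of chest vertebrae, was at 0 and 0.536 FPKM on day 4 and at 1.72 and 1.86 FPKM on day 6. The log2 differences of Hoxc6, Hoxd8 and Hoxb7 were 1.51, 1.21 and 1.17, with limma adjusted p of 0.270, 0.289 and 0.304.

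Other members of this range were at lower levels. Hoxb4, known for expanding blood stem cells, was at 0.0812 and 0 FPKM on day 4 and at 1.21 and 1.58 FPKM on day 6. Hoxb5, which takes part in the enteric nervous system, was listed at 0 in both day 4 libraries but at 1.33 and 1.46 FPKM on day 6. Hoxc5 was listed at 0 in both day 4 libraries but at 0.587 and 1.03 FPKM on day 6. These 3 genes, and Hoxd4 at 0 and 0.165 against 0.754 and 1.20 FPKM, had day 6 intervals above the day 4 intervals. Hoxa4 was listed at 0 on day 4 but at 0.514 and 0.168 FPKM on day 6, and Hoxa7 was at 0 and 0.332 against 0.673 and 0.962 FPKM. The intervals of Hoxa4 and Hoxa7 touched between the days. Hoxa6 was listed at 0 in all 4 libraries.

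Hoxc4 and Hoxa5 had day 4 libraries on either side of the day 6 libraries. Hoxc4 was at 0.214 FPKM in day 4 replicate 1 and at 3.37 FPKM in day 4 replicate 2, with intervals of 0 to 0.493 and 2.19 to 4.48 FPKM. In day 6 replicates 1 and 2 it was at 1.21 and 1.89 FPKM, between the day 4 libraries. Its log2 difference of 0.14 (SE 0.73, limma adjusted p 0.938) became -0.79 without day 4 replicate 1, where limma gave an adjusted p of 0.0485, and 1.06 without day 4 replicate 2, where limma gave an adjusted p of 0.0314. The direction for Hoxc4 therefore depended on which day 4 library was kept. Hoxa5, needed for lung development, was at 0 and 1.38 FPKM on day 4 and at 0.468 and 0.201 FPKM on day 6.

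Paralog groups 9 to 13, the 5′ end of the clusters, pattern the lower back, tail, limbs and genital tract. Their 16 genes summed to 3.39 and 5.73 FPKM on day 4 and to 26.7 and 30.1 FPKM on day 6, a 6.22-fold difference of the day means. Their share of the Hox FPKM was 26.1 and 27.0% on day 4 and 47.6 and 44.0% on day 6. Hoxb1 lowers these day 4 shares too. No share without it was computed, so no shift towards these groups is read from the shares. In cluster a the 4 genes of this range summed to 0.0674 and 0 FPKM on day 4 and to 5.63 and 7.01 FPKM on day 6.

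Hoxc10, a gene of the lumbar spine and hindlimb, was at 0.111 and 0.226 FPKM in day 4 replicates 1 and 2, the equivalent of 1.30 and 2.42 fragments. It was at 6.36 and 7.74 FPKM in day 6 replicates 1 and 2, the equivalent of 92.7 and 103 fragments. Both day 6 libraries lay far above both day 4 libraries, with day 6 intervals of 4.95 to 7.68 and 6.07 to 9.26 FPKM. The day means were 0.169 ± 0.0810 and 7.05 ± 0.971 FPKM (SD, n = 2 each). The log2 difference was 2.78 (SE 0.38), with an unadjusted limma p of 0.0013 and an adjusted p of 0.267. As the most abundant Hox gene on day 6 it held 11.3% of the Hox FPKM in each library, and 57.7 and 61.3% of the genes above 0 in replicates 1 and 2 were at or below its level. Hoxc10 lies on chromosome 15, plus strand, bases 102966796 to 102971897 of mm10.

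Group 9 genes, which act in the forelimb and the lower chest, were above 0 in every cluster in both day 6 libraries. Hoxd9 was at 0 and 0.102 FPKM in day 4 replicates 1 and 2 and at 4.09 and 5.21 FPKM in day 6 replicates 1 and 2. Its log2 difference was 2.42 (SE 0.37), with a limma adjusted p of 0.267. Hoxc9, which sets chest-level motor neuron identity, was at 0.375 and 0.381 FPKM on day 4 and at 3.35 and 4.64 FPKM on day 6, 10.6-fold higher. Both genes had every day 6 interval above every day 4 interval. Hoxb9 was at 1.38 and 0.779 FPKM on day 4 and at 3.72 and 2.26 FPKM on day 6, 2.77-fold higher, and its intervals touched between the days. Hoxa9, known from limb development and from leukaemia, was at 0.0674 and 0 FPKM on day 4 and at 0.801 and 1.27 FPKM on day 6. Over the 4 genes, group 9 summed to 1.83 and 1.26 FPKM on day 4 and to 11.97 and 13.4 FPKM on day 6, and Hoxb9 made up most of the day 4 sum.

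The window before Hoxd9 is shown as a contrast, since neither motif occurs in it. It is chr2:74697513-74697762 of GRCm38.p6, plus strand, 5′ to 3′, with no capitals.
Hoxd9: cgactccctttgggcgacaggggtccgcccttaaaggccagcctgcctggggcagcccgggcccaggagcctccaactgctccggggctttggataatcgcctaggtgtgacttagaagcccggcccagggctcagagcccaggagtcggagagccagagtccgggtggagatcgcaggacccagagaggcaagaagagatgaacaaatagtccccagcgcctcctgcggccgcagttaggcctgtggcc
Its content of G or C is 65.2%.

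RefSeq promoter windows were at hand for 22 of the 38 Hox genes, 24 windows in all. On either strand of the 250 bases before the start, TGATNNAT occurred in 4 of the 24 windows (16.7%), those of Hoxa2, Hoxb1, Hoxb8 and Hoxd11, against 7.68% of 32851 windows genome-wide. TTTATG occurred in 5 of the 24 (20.8%), those of Hoxa7, Hoxb8, Hoxd3, Hoxd4 and Hoxd11, against 10.8% genome-wide. The TATA box TATAAA was found in 4 of the 24 (16.7%, against 12.4%), and no window held the direct repeat of retinoic acid receptors (0.0213% genome-wide). TGATNNAT and TTTATG matches occurred both before Hoxb1 or Hoxb8 and before genes of low level such as Hoxa2 and Hoxd11. Hox windows held a median of 58.6% G or C and 12.5 CpG dinucleotides, against 52.4% and 6 genome-wide.

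Genes of groups 10 and 11 pattern the lumbar and sacral spine, and all but Hoxc10 were listed at 0 in both day 4 libraries. Hoxa10 was listed at 0 in both day 4 libraries but at 1.61 and 2.37 FPKM in day 6 replicates 1 and 2. Of its 2 transcript rows, the one from the upstream start held 1.14 and 1.89 FPKM and the other 0.470 and 0.484 FPKM. How the quantifier split reads between the rows bears on these values. Hoxa11, a gene of the forearm and kidney, was listed at 0 on day 4 but at 1.56 and 1.67 FPKM on day 6. Hoxc11 was listed at 0 on day 4 but at 1.33 and 1.22 FPKM on day 6. Both were above what 3 fragments would have given on day 4. In cluster d the same groups stayed lower: Hoxd10 was at 0.238 and 0.204 FPKM and Hoxd11 at 0.371 and 0.363 FPKM on day 6, both listed at 0 on day 4.

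The end of the clusters was uneven. Hoxa13, a gene of digits, hindgut and the umbilical vessels, was listed at 0 in both day 4 libraries, where 3 fragments would have given 0.506 and 0.502 FPKM. It was at 1.65 and 1.69 FPKM in day 6 replicates 1 and 2, with intervals of 0.920 to 2.38 and 0.963 to 2.45. It lies on chromosome 6, minus strand, bases 52258853 to 52260880 of mm10, with its start 52618 bases from Evx1, a homeobox gene of the primitive streak that neighbours the cluster. Hoxd13, its partner in digit formation, was at 0.336 and 0 FPKM on day 4 and at 0.260 and 0.544 FPKM on day 6, with the days overlapping. Hoxc13, a hair follicle gene, was at 1.12 and 2.52 FPKM on day 4 and at 0.796 and 0.657 FPKM on day 6. Its log2 difference was -0.66 (SE 0.43), with a limma adjusted p of 0.488. It was -1.03 without day 4 replicate 1 (limma adjusted p 0.0138) and -0.30 without day 4 replicate 2 (limma adjusted p 0.397). Hoxb13, a prostate and tail gene, was at 0 and 1.72 FPKM on day 4 and at 0.522 and 0.199 FPKM on day 6. Group 13 as a whole summed to 1.45 and 4.24 FPKM on day 4 and to 3.23 and 3.09 FPKM on day 6, and its 4 genes did not share a direction. In group 12, Hoxc12 was listed at 0 in all 4 libraries and Hoxd12 reached 0.0423 FPKM in 1 library.

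**Figure D2:**
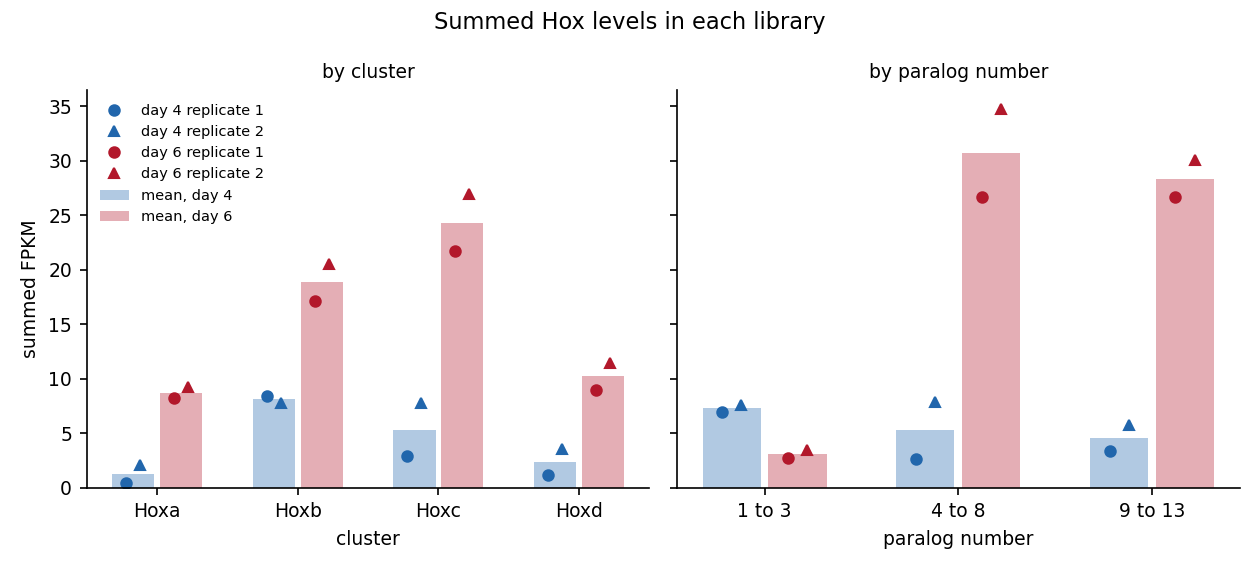
Summed FPKM of the Hox genes in each library (vertical axis), by cluster and by paralog range, with 1 mark per library. All cluster sums were higher in both day 6 libraries, and the sum of paralogs 1 to 3 was lower in both.

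All 4 clusters had a higher sum in both day 6 libraries. Over the 38 genes the sum was 13.02 and 21.2 FPKM on day 4 and 56.1 and 68.3 FPKM on day 6, with day means of 17.1 ± 5.82 and 62.2 ± 8.59 FPKM (SD, n = 2 each), 3.63-fold higher. Cluster c held the largest day 6 sum, 24.3 ± 3.67 FPKM against 5.32 ± 3.42 on day 4. Cluster b followed with 18.9 ± 2.42 against 8.12 ± 0.452, then cluster d with 10.2 ± 1.74 against 2.39 ± 1.67, then cluster a with 8.74 ± 0.758 against 1.30 ± 1.17 FPKM (n = 2 each). In day 6 replicates 1 and 2 cluster d, at 9.003 and 11.5 FPKM, lay above cluster a, at 8.21 and 9.28 FPKM. Cluster d in replicate 1 was still below cluster a in replicate 2. Cluster b on day 6, at 17.2 and 20.6 FPKM, lay below cluster c, at 21.7 and 26.9 FPKM, in both libraries.

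The FPKM-weighted mean paralog number gives the position of the output along the clusters. Over all members it was 4.85 and 5.61 in day 4 replicates 1 and 2 and 7.91 and 7.81 in day 6 replicates 1 and 2. In cluster a it was 3.85 and 4.92 against 8.97 and 9.32, and in cluster b 3.15 and 5.12 against 6.88 and 6.68. Both day 6 libraries were thus above both day 4 libraries in clusters a and b. The day 4 values of cluster a rest on sums of only 0.477 and 2.13 FPKM. The order in cluster b and over all members rests on Hoxb1, which held 45.4 and 20.4% of the Hox FPKM on day 4. On day 4, groups 4 to 8 of cluster b summed to 1.02 and 0.775 FPKM and groups 9 to 13 to 1.38 and 2.50. On day 6 these sums were 12.04 and 17.1 against 4.24 and 2.46 FPKM. Cluster d gave 6.51 and 2.60 against 7.79 and 7.59, with the day 4 libraries far apart. In cluster c the day 4 values of 9.27 and 7.68 lay on either side of the day 6 values of 8.38 and 8.24, so no shift was seen. A score over chosen genes gets no test here.

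**Figure D3:**
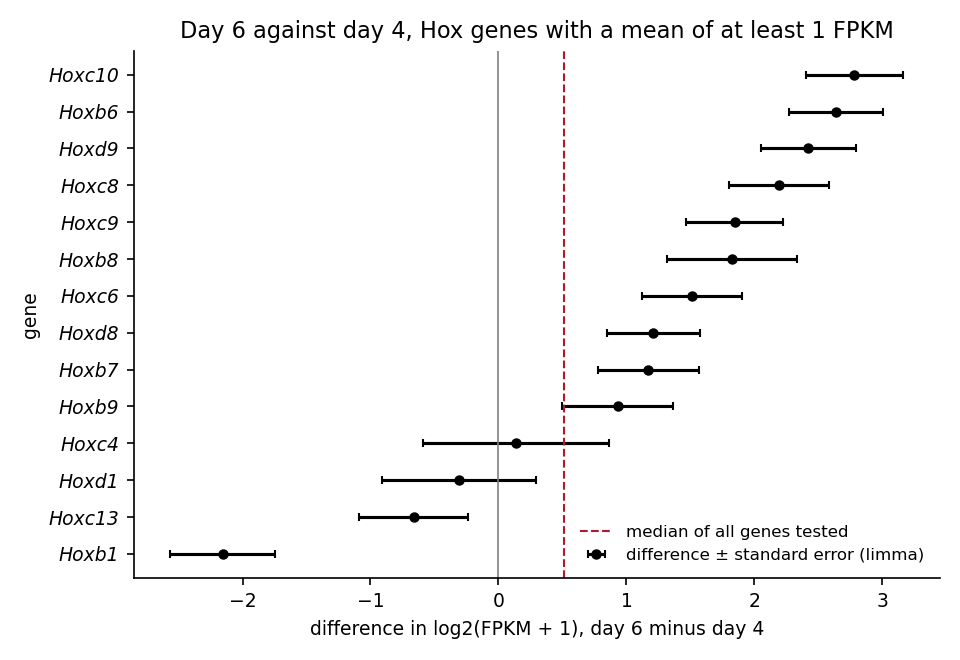
Log2 differences of log2(FPKM + 1), day 6 minus day 4, for the 14 Hox genes tested, with the limma standard error as bars and the median of all genes tested, 0.51, as a reference line. Hoxc10 and Hoxb6 are at the upper end, at 2.78 and 2.64, and Hoxb1 is at the lower end, at -2.15; no gene passed the test.

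The zeros on day 4 have to be read with the depth. Of the 38 genes, 12 (31.6%) had 0 FPKM in both day 4 libraries and were above 0 in both day 6 libraries, a pattern of 7.17% of symbols above 0 in any library. Of the 11 of these with 1 transcript row, 7 had both day 6 values above the level that 3 fragments would give on day 4: Hoxa11, Hoxa13, Hoxb5, Hoxb6, Hoxc5, Hoxc11 and Hoxd11. For Hoxa2, Hoxa4, Hoxb2 and Hoxd10 a difference was not detectable at this depth. Reads of overlapping genes add a limit, because no source used here gives the use of strand in counting: 10 Hox genes meet an antisense row, the row of Hoxa3 spans Hoxa4, Hoxa5 and Hoxa6, and that of Hoxd3 spans Hoxd4. Among the 7 genes above, Hoxb5 and Hoxb6 meet Hoxb5os, and Hoxa11 meets Hoxa11os. Both antisense genes were listed at 0 on day 4. In day 6 replicates 1 and 2 Hoxb5os was at 1.15 and 1.58 FPKM and Hoxa11os at 0.778 and 0.890 FPKM. What their reads add to the Hox values was not tested.

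The day 4 libraries stood apart from each other. In day 4 replicate 2, 15 Hox genes were higher than in day 4 replicate 1, 8 were lower and 15 were at 0 in both. Day 4 replicate 2 was above both day 6 libraries for 6 genes, Hoxa5, Hoxb1, Hoxb13, Hoxc4, Hoxc13 and Hoxd1, and day 4 replicate 1 for 2 genes, Hoxb1 and Hoxc13. No share over all genes is given for these counts, so nothing particular to Hox genes is read from them. Over all genes tested, the difference between the day 4 libraries moved with the GC content of the transcript. The median log2 difference, replicate 2 minus replicate 1, went from -1.78 in the bin of lowest GC content to 1.33 among transcripts above 58% GC, while the same medians for the day 6 libraries stayed between -0.10 and -0.02. The Hox transcripts had a median GC content of 54.4%, against 51.4% for all genes tested, and the 5 genes named above without Hoxb1 had between 49.8 and 54.7%. The day 4 medians of the bins 46 to 50, 50 to 54 and 54 to 58% were -0.95, -0.27 and 0.52. Hoxa5 and Hoxc4, higher in day 4 replicate 2, lay in bins of negative median. Hoxb13, Hoxc13 and Hoxd1, higher there too, lay in the bin of positive median. With each library's GC trend taken out, the log2 differences of Hoxc10, Hoxb6 and Hoxb1 were 2.25, 2.47 and -2.44. Among the others, Hoxb9 went from 0.93 to 0.42, Hoxb7 from 1.17 to 0.71, Hoxc6 from 1.51 to 1.03 and Hoxc13 from -0.66 to -1.05.

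**Figure D4:**
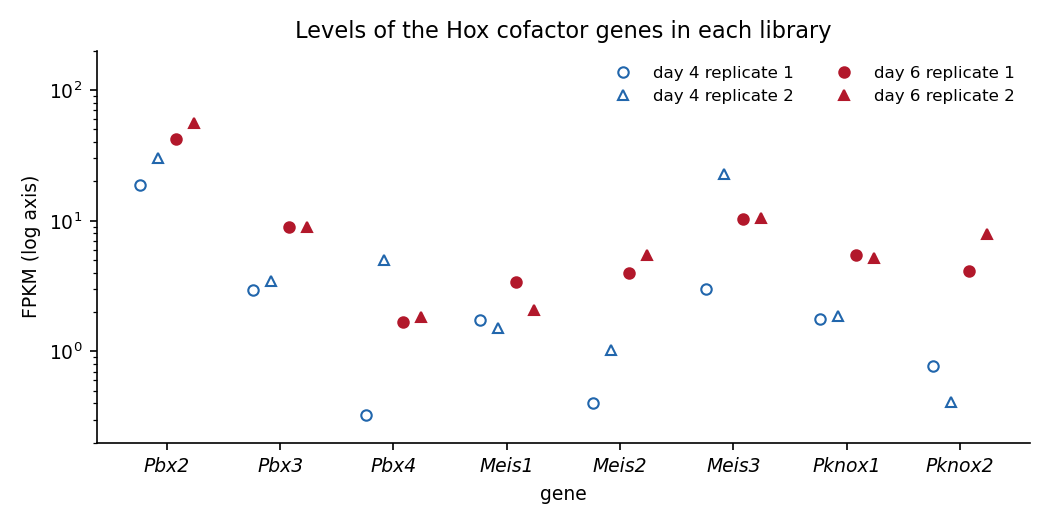
FPKM of 8 Hox cofactor genes in each library (vertical log axis), with open blue symbols for day 4 and filled red symbols for day 6. Pknox2 and Meis2 show the widest gaps between the days, and Pbx4 and Meis3 the widest between the day 4 replicates.

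The partners of Hox proteins were mostly higher on day 6 too, though none passed the test. Of 8 cofactor genes, all tested, 6 were higher in both day 6 libraries and 0 lower, with a median log2 difference of 1.09 against 0.51 for all genes. Among all genes tested, 41.6% were higher and 11.5% lower without overlap. Pknox2 was at 0.773 and 0.408 FPKM in day 4 replicates 1 and 2 and at 4.12 and 7.89 FPKM in day 6 replicates 1 and 2, a log2 difference of 2.09 (SE 0.47, limma adjusted p 0.267). Meis2 was at 0.405 and 1.02 FPKM on day 4 and at 4.01 and 5.45 FPKM on day 6. Pbx3 went with them, at 2.97 and 3.46 against 8.91 and 8.96 FPKM, as did Pknox1 at 1.78 and 1.85 against 5.48 and 5.16 FPKM. Meis1 differed less, at 1.73 and 1.51 against 3.37 and 2.07 FPKM.

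Genes that act upstream of the clusters in the primitive streak had both orders of the days. Of 10 such genes, 7 were tested and none passed, 4 were lower and 2 higher in both day 6 libraries, against 9.45% and 38.1% of all symbols above 0. The median log2 difference of those tested was -2.02, against 0.51 for all genes. T, the brachyury gene of the streak, was at 131 and 252 FPKM on day 4 and at 10.4 and 10.97 FPKM on day 6. Wnt3, a streak signal, was at 29.2 and 73.6 against 14.8 and 7.66 FPKM. Both therefore had the day order of Hoxb1. Evx1 was at 12.1 and 133 FPKM on day 4 and at 4.88 and 4.91 FPKM on day 6 (limma adjusted p 0.362). The Cdx genes did not separate the days: Cdx2 was at 7.87 and 33.0 against 28.7 and 30.9 FPKM, Cdx1 at 1.96 and 10.8 against 2.02 and 0.867 FPKM, and Cdx4 was listed at 0 in all 4 libraries. Gdf11, a signal for trunk-to-tail patterning, was at 2.95 and 0 FPKM on day 4 and at 7.00 and 8.14 FPKM on day 6.

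Retinoic acid genes were mixed. Of 14 genes, 9 were tested and none passed; 5 were higher and 3 lower in both day 6 libraries, against 38.1% and 9.45% of all symbols above 0, and the median of those tested was 0.69 against 0.51 for all genes. Cyp26a1, which breaks retinoic acid down, was at 11.9 and 21.4 FPKM on day 4 and at 3.16 and 2.06 FPKM on day 6 (log2 difference -2.25, SE 0.51, limma adjusted p 0.267). Aldh1a2, which makes it, was at 0.371 and 0.376 against 2.96 and 1.42 FPKM. The binding proteins differed within day 4, with Crabp2 at 11.3 and 0 against 18.6 and 17.5 FPKM and Crabp1 at 13.9 and 4.03 against 2.65 and 3.40 FPKM.

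Noncoding RNAs of the clusters had both orders of the days. Of 29 entries in the list 13 had a row and 5 were tested, of which none passed, and 4 of the 13 were higher and 2 lower in both day 6 libraries, against 38.1% and 9.45% of all symbols above 0. Halr1, a noncoding RNA at the 3′ side of cluster a, was at 9.78 and 24.7 FPKM on day 4 and was then listed at 0 in both day 6 libraries (limma adjusted p 0.267). Evx1os, antisense to Evx1, was at 3.54 and 3.16 against 1.20 and 2.04 FPKM. Hotairm1, beside the 3′ genes of cluster a, was at 1.55 and 3.60 against 1.56 and 1.60 FPKM, and Hoxb3os was at 0.0906 and 2.89 against 1.98 and 3.86 FPKM, so neither separated the days.

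Marker lists of other cell types differed between the days in different directions, and no marker passed the test. Of all symbols above 0 in any library, 38.1% were higher and 9.45% lower in both day 6 libraries. Of 12 fibroblast or feeder markers, 9 were higher in both day 6 libraries and 0 lower. Their sum was 9.78 to 17.1 FPKM on day 4 and 155 to 288 FPKM on day 6. Postn, Dcn and Lum had 0 FPKM in both day 4 libraries, as did Fap in both day 6 libraries, and Col3a1 was at 0.760 and 1.10 against 34.1 and 43.6 FPKM. Of 12 markers of extraembryonic mesoderm, 10 were higher and 0 lower, with sums of 189 to 507 FPKM on day 4 and 482 to 665 FPKM on day 6. In both day 4 libraries Tdo2 was listed at 0, and Pitx1 was at 0.0853 and 0 against 27.3 and 43.5 FPKM. All 9 primitive streak markers were lower in both day 6 libraries, with sums of 345 to 919 FPKM on day 4 and 44.0 to 58.1 FPKM on day 6. This list shares genes with the upstream list above, T and Wnt3 among them, so these results are not separate. Of 8 hindbrain and spinal cord markers with a row, 2 were higher and 2 lower, with sums of 11.8 to 32.5 and 19.6 to 22.5 FPKM, and Olig2 was listed at 0 in both day 6 libraries. Of 10 embryonic stem cell markers, 3 were higher and 5 lower, and Pou5f1 (Oct4), which defines these cells, was at 368 and 376 against 54.9 and 41.99 FPKM. The part of these cell types in the Hox values was not tested.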

How the data were processed

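RNA was measured in 4 wild-type CJ9 libraries, 2 of day 4 and 2 of day 6, grouped by title. CASAVA, TopHat2 2.0.11 and build mm10 are named, with no role, per the submitters' processing notes. The quantifier, annotation and use of strand were not given in the sources used here. The authors deposited FPKM per transcript row (35656 rows a library) with lower and upper bounds and a coverage signal. Per library 291 rows have a low-data status.

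Symbols from RefSeq (GRCm38.p6) and GENCODE M21 named 95.5% of rows, and FPKM was summed per symbol. log2(FPKM + 1) was tested with limma 3.58.1 in R 4.3.3 (trend, two-sided, Benjamini-Hochberg, threshold 0.05) on 11716 genes whose mean was 1 FPKM or more. The test was tried on simulated data. Fragments were estimated from the deposited bounds, taken as 2 Poisson standard deviations. Intervals and floors of 3 fragments cover counting error only. A fold on the log2(FPKM + 1) scale understates low genes. The main test has no correction for GC content.

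Named were every Hox gene and, of each other list, up to 4 tested genes with the smallest p, plus Evx1, Cdx1, Cdx2, Cdx4 and Meis1. Hoxb5os, Hoxa11os, Pbx4, Meis3, Dcn, Lum, Fap and Olig2 were named after their values were seen. Some genes of the lists are not reported here. Members and lists were chosen with earlier results of these data known. Alternatives were another pseudocount, no filter, median scaling, a GC correction, the replicate block, the largest transcript row and leaving out each library.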

Additional observations from a re-analysis of the deposited data

How the results depend on the processing

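Leaving out 1 library moved the counts most. Genes passing limma's adjusted threshold of 0.05 ranged from 0 to 5851 higher and from 0 to 1998 lower over all genes, and from 0 to 10 higher and 0 to 4 lower among Hox genes. The Hox calls all came without a day 4 library, as did all others except those with the replicate number as a block. With 1 library left at day 4, the spread comes from the day 6 pair alone. With the replicate number as a block, 54 genes passed higher and 13 lower, against 0 and 0 without it, and among Hox genes 0 passed with the block as well, with a smallest adjusted p of 0.0681. No label ties the numbers to a shared culture. The deviations of same-numbered libraries had a correlation of -0.09 across genes, over only 2 pairs, so the block was not used.

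Hox genes higher at day 6 without overlap numbered 27, 27 with the largest transcript row, 25 with FPKM scaled to the same median (chosen after seeing the data) and 28 to 32 with 1 library left out. Those lower numbered 2, and 2 to 6 with 1 library left out. The shares of all symbols above 0 were given for the main setting alone. Leaving out a library makes separation easier for any gene, so these counts do not show how firm the Hox pattern is. The day 6 sum of cluster a was 8.74 FPKM, and 7.82 with the largest transcript row, which leaves out the second rows of Hoxa9 and Hoxa10. Hoxc4 reversed from 0.14 to -0.49 with median scaling, -0.36 with the GC correction, -0.79 without day 4 replicate 1 (1.06 without day 4 replicate 2) and -0.06 without day 6 replicate 2. Hoxd1 reversed from -0.31 to 0.41 without day 4 replicate 2 (-1.04 without day 4 replicate 1). The cause was not tested. The median of all genes was 0.51, 0.19 with the GC correction and -0.12 with median scaling. With median scaling Hoxc10 was at 2.15 and Hoxb1 at -2.78, and 8 other genes moved by over 1.5 times: Hoxb9 to 0.30, Hoxb7 to 0.54, Hoxd8 to 0.58, Hoxc6 to 0.88, Hoxb8 to 1.20, Hoxc9 to 1.22, Hoxc13 to -1.29 and Hoxd1 to -0.94. The adjusted p of single Hox genes was at least 0.153 with the GC correction and 0.364 with a pseudocount of 0.1. Depth limits values below about 1 FPKM at day 4.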

Other observations

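The chromatin regulators of the Hox clusters, Polycomb proteins that silence them and Trithorax proteins that keep them active, did not go one way. Of 20 genes, 19 were tested and none passed limma's adjusted threshold. Of the 20, 3 were higher and 6 lower in both day 6 libraries, against 38.1% and 9.45% of all symbols above 0. The median log2 difference of those tested was 0.15 against 0.51 for all genes. Phc1, a Polycomb repressive complex 1 subunit, was at 93.5 and 152 FPKM in day 4 replicates 1 and 2 and at 30.7 and 36.8 FPKM in day 6 replicates 1 and 2. Pcgf2, another subunit of that complex, was at 81.2 and 160 against 40.2 and 44.1 FPKM. Suz12, a core subunit of Polycomb repressive complex 2, was at 18.6 and 13.7 against 5.81 and 4.58 FPKM. Ezh1, an enzyme of complex 2, had the opposite order, at 2.86 and 0.294 against 6.36 and 8.46 FPKM, with the day 4 libraries far apart. No relation of these genes to the Hox values was tested.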
